A study of Homo sapiens with 6 samples.

Results

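The nuclear genes for the proteins of the mitochondrial ribosome were examined in RNA immunoprecipitates of 2 cytoplasmic poly(A)-binding proteins. Members were the genes of both deposited tables whose symbol begins with MRPL or MRPS, followed by a number and, in some, a letter A, B or C, which leaves out pseudogenes. The rule chose 78 of 58302 genes, 49 with an MRPL and 29 with an MRPS symbol, and each of the 78 is a protein-coding gene in RefSeq. They lie on 21 chromosomes. RNA was immunoprecipitated and sequenced (RIP-seq) in HepG2, an established line of human hepatocellular carcinoma cells. The labels give 3 groups of 2 libraries. PABPC4 RIP used an anti-PABPC4 antibody on HepG2 cells with overexpressed PABPC4, PABPC1 RIP an anti-PABPC1 antibody on HepG2 cells with overexpressed PABPC1, and IgG RIP used rabbit IgG on both, 1 library from each population. The PABPC4 and PABPC1 libraries thus differ in the overexpressed protein as well as in the antibody, and these cannot be told apart. Nothing in the labels gives separate cultures for the replicates, so a p-value reflects the spread of these libraries alone, and that spread may be technical.

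The mitochondrial ribosome translates the few mRNAs of the mitochondrial genome, which encode core subunits of the respiratory chain. Its rRNAs are mitochondrial, but its proteins are encoded in the nucleus, translated on cytosolic ribosomes from polyadenylated mRNAs and imported. Some of these proteins descend from bacterial ribosomal proteins and others are specific to mitochondria. PABPC1 is the abundant protein that coats the poly(A) tails of cytoplasmic mRNAs and links them to translation initiation, and PABPC4 is a less abundant relative of it.

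The tables give comparisons only, but whole reads of each library could be recovered from them for all 78 members. The 2 libraries of an antibody are called A and B, A being the one with more reads, because the recovery does not tell which is replicate 1. Totals were 850190 and 841327 reads for PABPC4, 289217 and 277552 for PABPC1, and 133030 and 94235 for IgG. The recovered reads of nuclear-encoded genes, which leave out MALAT1 and RN7SL2, made up 78.8% and 77.5% of the PABPC4 libraries, 53.3% and 58.8% of the PABPC1 libraries and 38.7% and 40.7% of the IgG libraries. Because of this difference ratios of summed reads are per library total, as in the deposited fold, and, for the family, its subunits and the members described in full, also per nuclear total, the recovered reads of nuclear-encoded genes alone. In RPM, reads per 1000000 reads of the library total, PABPC1 mRNA had 590.5 and 676.3 in PABPC4 RIP, 594.7 and 634.1 in PABPC1 RIP and 285.6 and 318.4 in IgG RIP. PABPC4 mRNA had 162.3 and 183.0 RPM in PABPC4 RIP, 110.6 and 154.9 in PABPC1 RIP and 75.2 and 42.4 in IgG RIP. Neither mRNA was clearly higher in the RIP of its own protein than in the other RIP. All 8 hepatocellular markers had reads, and 4 blood markers together had 805 reads in PABPC4 RIP, 638 in PABPC1 RIP and 766 in IgG RIP, the highest share being in IgG. Their part in the results was not tested.

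The start of the transcript is shown first for the 5 members that the authors' deposited table calls higher in PABPC4 RIP, because cytosolic ribosomal protein mRNAs are known for a 5′ terminal oligopyrimidine start, a C followed by a run of pyrimidines, that ties their translation to growth signals. The windows are from RefSeq (GRCh38.p14), 5′ to 3′ in the direction of transcription, and run from 30 bases before to 10 bases after the annotated start. The first 5 transcribed bases are in capitals. MRPL45 and MRPS27 follow as members whose annotated start has that form. RPS6 follows as a cytosolic ribosomal protein mRNA with such a start and 2731 reads over all libraries.
MRPS5 (chr2:95121799-95121838, minus strand): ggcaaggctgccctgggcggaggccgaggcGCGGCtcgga
MRPS15 (chr1:36464375-36464414, minus strand): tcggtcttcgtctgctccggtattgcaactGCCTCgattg
MRPS26 (chr20:3046022-3046061, plus strand): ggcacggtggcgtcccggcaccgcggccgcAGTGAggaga
MRPL52 (chr14:22829857-22829896, plus strand): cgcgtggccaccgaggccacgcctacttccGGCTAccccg
MRPS23 (chr17:57850035-57850074, minus strand): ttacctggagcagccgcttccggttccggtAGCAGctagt
MRPL45 (chr17:38297138-38297177, plus strand): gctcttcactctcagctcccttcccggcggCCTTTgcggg
MRPS27 (chr5:72320231-72320270, minus strand): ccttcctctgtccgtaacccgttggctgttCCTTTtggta
RPS6 (chr9:19380227-19380266, minus strand): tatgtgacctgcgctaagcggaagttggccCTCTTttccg
None of the 5 called members has C followed by 4 pyrimidines at its annotated start, whereas MRPL45, MRPS27 and RPS6 do. RefSeq promoter windows were at hand for 69 of the 78 members and 62 cytosolic ribosomal protein genes. Such a start stands in 5 of the 69 members (7.25%), MRPL44, MRPL45, MRPL53, MRPS27 and MRPS33, against 43 of the 62 cytosolic ribosomal protein genes (69.4%) and 4.6% of 15842 protein-coding genes. In the 300-base window from 250 bases before to 50 after the start, searched on both strands, the YY1 motif ATGGCGGC occurs in 19 members (27.5%), among them MRPS15, MRPS18A, MRPS18B and MRPS30. It occurs in 8.06% of the cytosolic ribosomal protein windows and in 4.49% of all windows. Of its 20 matches in members, 17 begin at or after the transcript start. The ETS motif CCGGAAGT, the core bound by GABP, is in 11 members (15.9%), MRPL52 and MRPL3 included, in 14.5% of cytosolic ribosomal protein windows and in 6.19% of all windows. The NRF1 motif GCGCATGCG is in 3 members (4.35%), in 1.61% of cytosolic ribosomal protein windows and in 2.76% of all windows. A match of letters is a description and shows no binding.

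The members were of moderate abundance in the RIPs and shallow in IgG. They had 3381 reads in PABPC4 RIP, 841 in PABPC1 RIP and 188 in IgG RIP, with a median per member of 30, 7 and 2 reads. Levels in RPKM are RPM per kilobase of gene model, with the length that each deposited fold implies. This length ranged from 959 nucleotides for MRPL14 to 16393 for MRPL42. Its median was 2502 against 4944 for protein-coding genes with reads, so levels depend on the gene models used. In RPKM the median level of a member was 6.76 in PABPC4 RIP, 5.06 in PABPC1 RIP and 2.98 in IgG RIP. For protein-coding genes it was 3.27, 2.52 and 1.81. MRPS26, a mitochondrion-specific protein of the small subunit, had the highest level in both RIPs, 78.3 and 93.9 RPKM in PABPC4 RIP and 76.7 in each library of PABPC1 RIP, against 13.3 and 37.7 in IgG RIP. MRPS15, which has a bacterial homologue, came second with 44 and 54.2 RPKM in PABPC4 RIP and 33.2 and 35.8 in PABPC1 RIP, against 10.3 and 14.6 in IgG RIP. MRPS5, another small subunit protein of bacterial descent, had 50.4 and 39.1 RPKM in PABPC4 RIP and 21.6 and 29.0 in PABPC1 RIP, against 10.1 and 22.1 in IgG RIP. MRPS26 stood above both in either RIP, while MRPS15 and MRPS5 overlapped in PABPC4 RIP. MRPL52 had the highest mean of the large subunit members in both RIPs, with 26.7 and 27.4 RPKM in PABPC4 RIP and 28.0 and 23.5 in PABPC1 RIP, against 2.34 and 6.61 in IgG RIP. Single libraries of other members reached its level, such as MRPL45 with 29.0 in PABPC4 RIP and MRPL14 with 41.3 in PABPC1 RIP. At the other end stood MRPL38, with a mean of 0.321 RPKM in PABPC4 RIP. Across members the mean RPKM of the 2 RIPs ranked much alike (Spearman 0.882 over 78 members). Between single libraries it was 0.898 for PABPC4 and 0.755 for PABPC1. Means of 2 libraries and single libraries of unlike depth are no equal basis, so these values cannot be set against each other. They share the gene lengths and describe the members only. Input RNA was not analysed here, so recovery by the antibody and abundance in the cells cannot be told apart in a level.

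**Figure D1:**
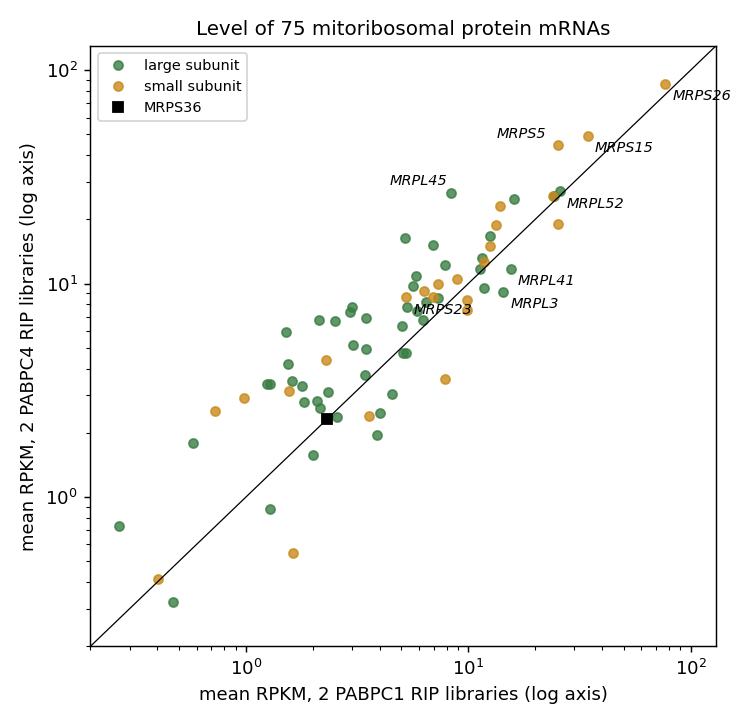
Each point is 1 of the 75 members with a read in both RIPs, placed by its mean RPKM in 2 PABPC1 RIP libraries (x axis) and 2 PABPC4 RIP libraries (y axis), both log axes; colours give the subunit, a square marks MRPS36 and the line marks equal levels. MRPS26 is highest on both axes, MRPL45 lies above the line and MRPL3 below it.

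Summed over the family, the share of reads was higher in both RIPs than in IgG, and most of that difference was shared with other nuclear mRNAs. In RPM of the library total, the members had 2022 and 1976 in PABPC4 RIP, 1349 and 1625 in PABPC1 RIP and 737 and 955 in IgG RIP, so the 3 groups did not overlap. The ratio of summed reads was 2.42 for PABPC4 over IgG (exact 95% interval 2.09 to 2.81), 1.79 for PABPC1 over IgG (1.53 to 2.11) and 1.35 for PABPC4 over PABPC1 (1.25 to 1.45). All protein-coding nuclear mRNAs had ratios of 2.0, 1.42 and 1.41 in the same comparisons. Per 1000000 reads of the nuclear total, the members had 2565 and 2551 in PABPC4 RIP, 2531 and 2763 in PABPC1 RIP and 1905 and 2350 in IgG RIP. On this scale the RIPs still did not overlap with IgG, but they overlapped with each other. The ratios became 1.23 for PABPC4 over IgG (1.06 to 1.43), 1.27 for PABPC1 over IgG (1.09 to 1.5) and 0.965 for PABPC4 over PABPC1 (0.894 to 1.04). An exact two-sided permutation test of 2 against 2 libraries cannot give a p under 0.333, so no test over libraries was made for these sums.

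**Figure D2:**
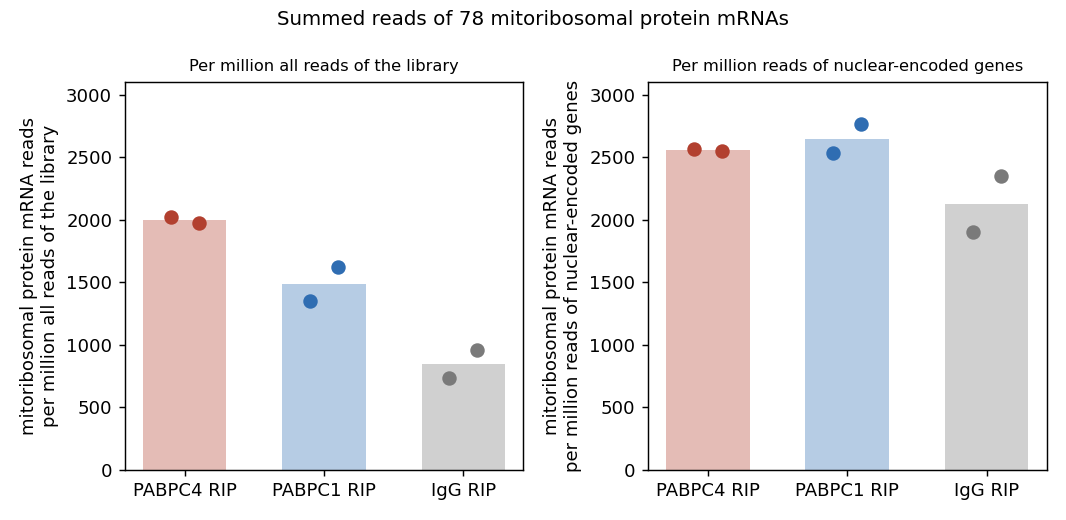
Summed reads of the 78 members, per 1000000 reads of the library total (left) and of the nuclear total (right); each point is 1 library and each bar the mean of 2. On the left the order is PABPC4, PABPC1, IgG with no overlap, and on the right the PABPC4 and PABPC1 libraries overlap and both lie above IgG.

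The intervals cover counting error only, and the IgG libraries and a few deep members decide how far the family stands above IgG. MRPS5, MRPS15 and MRPS26 held 27.1% of the family's reads in PABPC4 RIP, 24.0% in PABPC1 RIP and 19.7% in IgG RIP. Without these 3, the ratio per nuclear total was 1.12 for PABPC4 over IgG (0.946 to 1.32) and 1.2 for PABPC1 over IgG (1.01 to 1.45). Without IgG library A, the ratio per nuclear total over all members was 1.09 for PABPC4 (0.883 to 1.36) and 1.13 for PABPC1 (0.907 to 1.42). Without IgG library B the values were 1.34 (1.10 to 1.66) and 1.39 (1.13 to 1.73). Chi-square per degree of freedom, 1 where counting error alone acts, was 1.3 between PABPC4 libraries A and B over 51 members and 1.12 over all nuclear-encoded genes.

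Against IgG, the authors' deposited table calls 5 of 78 members higher in PABPC4 RIP (6.41%) and 0 lower at an adjusted p under 0.05, where it calls 5.54% of 21455 genes higher and 0.9% lower. In the PABPC1 comparison the authors' deposited table calls 1 of 75 members higher (1.33%) and 0 lower, where it calls 1.34% of 17565 genes higher and 0.194% lower. Both shares of members are near those of all genes. At an unadjusted p under 0.05 the authors' deposited table has 9 of 78 members higher for PABPC4 (11.5%), where it has 11.7% of all genes higher, and 7 of 75 higher for PABPC1 (9.33%), where it has 5.98% of all genes higher. It has 0 members lower in either, where 1.85% of all genes were lower for PABPC4 and 1.05% for PABPC1. That p comes from a chi-square test on summed reads and takes no account of how libraries of a group differ. The called members were MRPS5, MRPS15, MRPS26 and MRPS23 of the small subunit and MRPL52 of the large subunit, which alone was called for both proteins. With nuclear totals in the same chi-square test, higher calls over genes with recovered reads fell from 1187 to 110 for PABPC4. For PABPC1 they fell from 234 to 25. Lower calls rose from 190 to 437 and from 31 to 73. Higher calls over all genes also fell for both proteins when either IgG library was left out. On nuclear totals the test called 0 members in either comparison. Leaving out 1 library also removed calls: without IgG library A there were 0 for PABPC4, without IgG library B there were 2 (MRPS5 and MRPS15), without PABPC4 library B 3 (MRPS5, MRPS15 and MRPL52), and MRPL52 lost its call for PABPC1 without any 1 of the 4 libraries.

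MRPS5 is the member with the most reads, 288 and 221 in PABPC4 RIP and 42 and 54 in PABPC1 RIP, against 9 and 14 in IgG RIP. Both PABPC4 libraries exceeded both IgG libraries per library total, with a ratio of 2.97 (1.96 to 4.73) and an adjusted p of 6.69e-06 in the authors' deposited table. Per nuclear total the ratio was 1.51 (0.996 to 2.41), and IgG library B lay above PABPC4 library B. MRPS5 for PABPC1 over IgG had a ratio of 1.67 (1.05 to 2.77) and an adjusted p of 0.603 in the authors' deposited table. Per nuclear total that ratio was 1.19 (0.747 to 1.96), an interval that includes 1.

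MRPS15 had 109 and 133 reads in PABPC4 RIP and 28 and 29 in PABPC1 RIP, against 4 and 4 in IgG RIP. Its ratio over IgG was 4.06 for PABPC4 (2.03 to 9.52; adjusted p 0.00116 in the authors' deposited table) and 2.86 for PABPC1 (1.36 to 6.93; 0.211). Per nuclear total MRPS15 kept an interval above 1 for PABPC4, 2.07 (1.03 to 4.84), but not for PABPC1, 2.03 (0.962 to 4.92).

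MRPS26 had 75 and 89 reads in PABPC4 RIP and 25 and 24 in PABPC1 RIP, against 2 and 4 in IgG RIP. The ratio was 3.67 for PABPC4 (1.65 to 10.2; adjusted p 0.0223 in the authors' deposited table) and 3.27 for PABPC1 (1.40 to 9.35; 0.217). Its RIP libraries lay above both IgG libraries per library total, with only 6 IgG reads to set them against. Per nuclear total the MRPS26 ratios were 1.87 for PABPC4 (0.839 to 5.16) and 2.32 for PABPC1 (0.994 to 6.64), and both intervals include 1.

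MRPS23, mitochondrion-specific, rested on 1 IgG read: it had 41 and 52 reads in PABPC4 RIP and 8 and 11 in PABPC1 RIP, against 1 and 0 in IgG RIP. The ratio of 12.5 for PABPC4 was the highest among members with an IgG read and had an interval of 2.19 to 499, with an adjusted p of 0.0350 in the authors' deposited table. For PABPC1 the ratio was 7.62 (1.21 to 317), not called. Per nuclear total MRPS23 had ratios of 6.35 (1.11 to 254) and 5.41 (0.859 to 225). MRPS27, a pentatricopeptide repeat protein of the small subunit, had 39 and 44 reads in PABPC4 RIP and 12 and 24 in PABPC1 RIP, against 1 and 3 in IgG RIP. It was not called, with ratios of 2.79 (1.05 to 10.5) for PABPC4 and 3.61 (1.29 to 14.0) for PABPC1, or 1.42 (0.533 to 5.32) and 2.56 (0.918 to 9.9) per nuclear total. MRPS25 and MRPS9, among the 10 members with most reads, had ratios for PABPC4 of 1.75 (0.814 to 4.47) and 5.04 (1.35 to 42.4), neither called, and of 0.888 and 2.56 per nuclear total.

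MRPL52 had 73 and 74 reads in PABPC4 RIP and 26 and 21 in PABPC1 RIP, against 1 and 2 in IgG RIP. Its ratio was 6.58 for PABPC4 (2.21 to 32.3) and 6.28 for PABPC1 (2.02 to 31.6), with adjusted p values of 0.00717 and 0.0479 in the authors' deposited table. Per nuclear total both intervals stayed above 1, 3.35 (1.12 to 16.4) for PABPC4 and 4.46 (1.43 to 22.4) for PABPC1. The 4 RIP libraries lay close together in RPKM and all lay above both IgG libraries. MRPL45, which anchors the mitochondrial ribosome to the inner membrane, had 42 and 35 reads in PABPC4 RIP and 3 and 5 in PABPC1 RIP, against 2 and 0 in IgG RIP. Its ratio over IgG was 5.17 for PABPC4 (1.38 to 43.5) and 1.60 for PABPC1 (0.320 to 15.5), neither called. Per nuclear total these were 2.63 (0.704 to 22.1) and 1.14 (0.227 to 11), and both intervals include 1. MRPL28 and MRPL18 had ratios of 4.57 (1.22 to 38.5) and 5.11 (0.863 to 207) for PABPC4, also without a call, and of 2.32 and 2.59 per nuclear total. MRPL42, the longest gene model, had a ratio of 1.29 (0.624 to 3.10) for PABPC4 and 0.852 (0.349 to 2.28) for PABPC1, or 0.657 and 0.605 per nuclear total.

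At the low end for PABPC4 over IgG, among the 52 members with at least 20 reads in both groups together, the ratio per library total was 0.560 for MRPL41 (0.224 to 1.67), 0.784 for MRPS21 (0.326 to 2.28), 0.840 for MRPS30 (0.290 to 3.32), 0.974 for MRPL11 (0.342 to 3.81) and 1.04 for MRPL32 (0.368 to 4.06). Each of these intervals includes 1. MRPL41, a mitochondrion-specific large subunit protein, had 10 and 15 reads in PABPC4 RIP and 3 and 8 in PABPC1 RIP, against 3 and 3 in IgG RIP. In RPKM these were 9.32 and 14.1 in PABPC4 RIP and 8.22 and 22.8 in PABPC1 RIP, against 17.9 and 25.2 in IgG RIP. The 2 PABPC4 libraries lay below both IgG libraries, and per nuclear total the ratio was 0.285 (0.114 to 0.848). For PABPC1 over IgG, 11 members had at least 20 reads in both groups together, and MRPL42 had the lowest ratio per library total. Next came MRPS34 at 1.00 (0.368 to 3.15), MRPS25 at 1.26 (0.520 to 3.49), MRPS5 and MRPS18B at 2.17 (0.822 to 7.20). The intervals of MRPL42, MRPS34, MRPS25 and MRPS18B include 1.

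Over those 52 members for PABPC4 over IgG, 48 had a ratio above 1 per library total and 32 per nuclear total. The interval excluded 1 on the high side in 12 of them per library total and in 3 per nuclear total, MRPS15, MRPL52 and MRPS23. It did so on the low side in MRPL41 alone, per nuclear total. Most members passed that read minimum through PABPC4 reads, so these counts support no direction for the family.

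**Figure D3:**
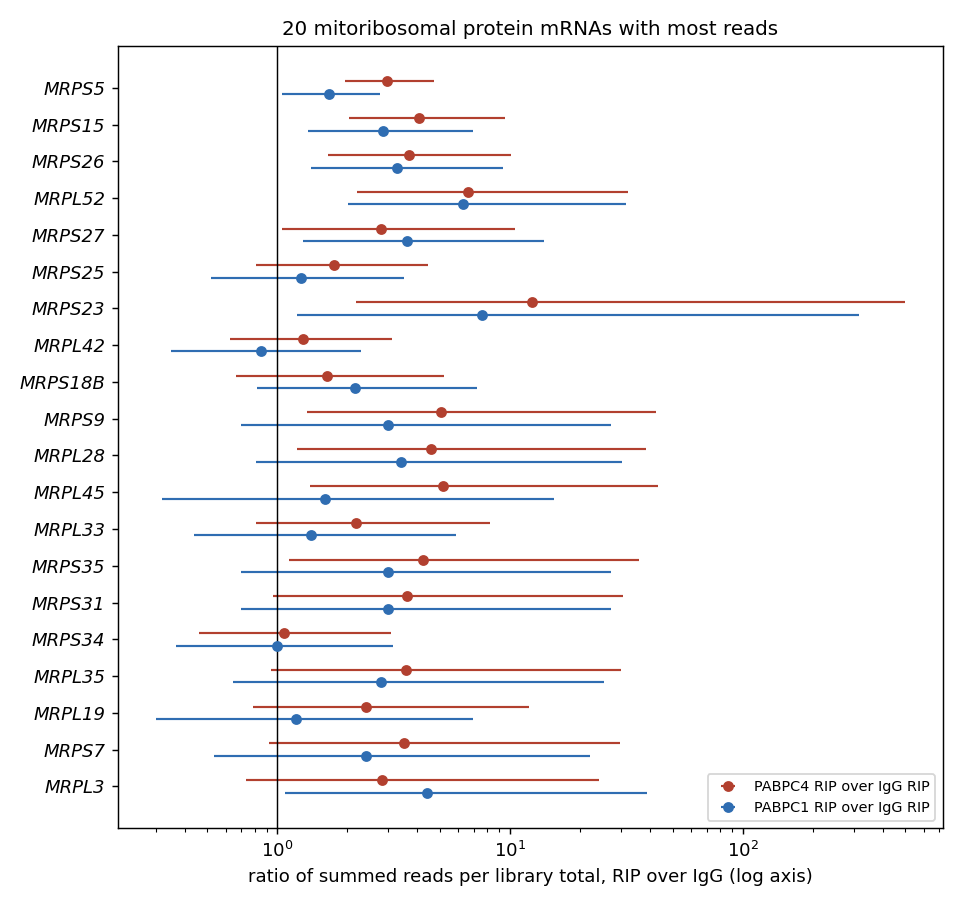
Ratio of summed reads per library total over IgG (log x axis) for the 20 members with most reads, PABPC4 above PABPC1 in each row; bars are exact 95% intervals for counting error, and the line marks 1. MRPS5, MRPS15, MRPS26, MRPL52, MRPS27 and MRPS23 have both intervals above 1, and MRPS23 reaches 499 because it has 1 IgG read.

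Low IgG depth limited most members. In IgG RIP 17 members had 0 reads, 45 had 1 to 3, and 16 had more, MRPS5 having the most with 23. A member with 0 IgG reads has only a bound, set against 3 reads over both IgG libraries. For PABPC4 this was at least 1.48-fold higher for MRPS18A, which had 13 and 20 reads in PABPC4 RIP, at least 1.34-fold for MRPL20, 1.16-fold for MRPS33 and 1.07-fold for MRPL13. The bound leaves out the counting error of the PABPC4 reads, and the exact 95% lower limit of the ratio was 1.14 for MRPS18A, 1.03 for MRPL20, 0.881 for MRPS33 and 0.809 for MRPL13, so only MRPS18A and MRPL20 stood above 1 by it. Per nuclear total the lower limit for MRPS18A was 0.577. The other 13 such members were below a bound of 1. None of the 17 was called, although the authors' deposited table lists a fold of 3042 for MRPS18A, because it adds 0.005 RPKM to an IgG mean of 0. MRPL12, which also binds the mitochondrial RNA polymerase, MRPS24 and MRPS12, which lies at the decoding centre, had 0 reads in PABPC1 RIP as well and carry no p in that table. Only 30 of the 78 members had reads in all 6 libraries.

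A second test, which includes the spread between libraries, was limma voom on the recovered reads with median-of-ratios scaling, fitted to the 7986 genes that reached 10 reads in 2 or more libraries. It took in 49 of the 78 members, most of which passed that minimum through the 2 deeper PABPC4 libraries. For PABPC4 over IgG it called 1 member, MRPL41, lower (log2 fold change -1.97, SE 0.58, adjusted p 0.0439) and 0 higher, with 3.84% of all genes called. At an unadjusted p under 0.05 it had 4 of 49 members (8.16%), against 17.3% of all genes. The call rests on 6 IgG reads, was not made by the chi-square test in the authors' deposited table (unadjusted p 0.310), and was not made in any of the 4 fits without a PABPC1 or an IgG library (adjusted p 0.167 to 0.311). Without either PABPC4 library MRPL41 missed the read minimum. The fit without IgG library A called MRPS21 lower (log2 fold change -2.34, adjusted p 0.0284), 1 of 49 members (2.04%) where 1.94% of all genes were called. For PABPC1 over IgG it called 0 members, with 0.851% of all genes called, and at an unadjusted p under 0.05 there were 3 members higher and 2 lower, 10.2% of members against 12.9% of all genes. The smallest adjusted p there was that of MRPL52 (log2 fold change 1.85, SE 0.61, adjusted p 0.165). The median log2 fold change of the 49 members was 0.10 for PABPC4 over IgG and 0.17 for PABPC1 over IgG, against -0.05 and -0.03 over all genes fitted.

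Between the 2 poly(A)-binding proteins no member passed the test. Limma voom called 0 of 49 members for PABPC4 over PABPC1, with 4.41% of all genes called, and at an unadjusted p under 0.05 it had 1 member higher and 4 lower, 10.2% of members against 16.4% of all genes. The members' median log2 fold change was -0.02, against -0.03 over all genes fitted. MRPL3, a bacterial-type protein near the peptidyl transferase centre, had 19 and 23 reads in PABPC4 RIP against 10 and 12 in PABPC1 RIP. Its log2 fold change was -1.15 (SE 0.37, adjusted p 0.0694), the smallest adjusted p among members. Per nuclear total the MRPL3 ratio was 0.458 (0.267 to 0.806), and per library total 0.640 (0.373 to 1.13). Next were MRPS18B at -0.90 (SE 0.33, adjusted p 0.124), MRPL41 at -0.84 (0.52, 0.448), MRPL37 at -0.83 (0.39, 0.283) and MRPS27 at -0.80 (0.32, 0.167). MRPL3 was called lower in the fits without IgG library A (adjusted p 0.0345), without IgG library B (0.0327) or without PABPC4 library B (0.0308, with MRPS5 higher at 0.0102). MRPL3 was not called in the fits without PABPC1 library A, PABPC1 library B or PABPC4 library A. A fit of the PABPC4 and PABPC1 libraries alone called MRPL3 (0.0227) and MRPS18B (0.0493) lower, 2 of 49 members (4.08%) where it called 6.99% of all genes. The fits without IgG library A, IgG library B or PABPC4 library B called 5.93%, 6.15% and 14.6% of all genes.

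On the high side MRPL11, at the base of the ribosomal stalk, had 11 and 18 reads in PABPC4 RIP against 0 and 3 in PABPC1 RIP, and a log2 fold change of 1.41 (SE 0.76, adjusted p 0.360). MRPS33 followed at 1.3 (0.71, 0.372), then MRPL13 at 1.17 (0.71, 0.435), MRPL45 at 1.09 (0.50, 0.258) and MRPL18 at 1.03 (0.62, 0.427). Of these MRPL45 had the most reads, and its ratio was 3.23 per library total (1.56 to 7.74) and 2.31 per nuclear total (1.12 to 5.54). In RPKM it had 29.0 and 24.4 in PABPC4 RIP and 6.08 and 10.6 in PABPC1 RIP, groups that did not overlap. The related pseudogene MRPL45P2 had 16, 4 and 2 reads in PABPC4, PABPC1 and IgG RIP, and the sources used here do not say how reads that map to both were counted. MRPS5 had a log2 fold change of 0.34 (0.20, 0.399) and a ratio of 1.78 (1.43 to 2.23) per library total and 1.27 (1.02 to 1.60) per nuclear total.

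**Figure D4:**
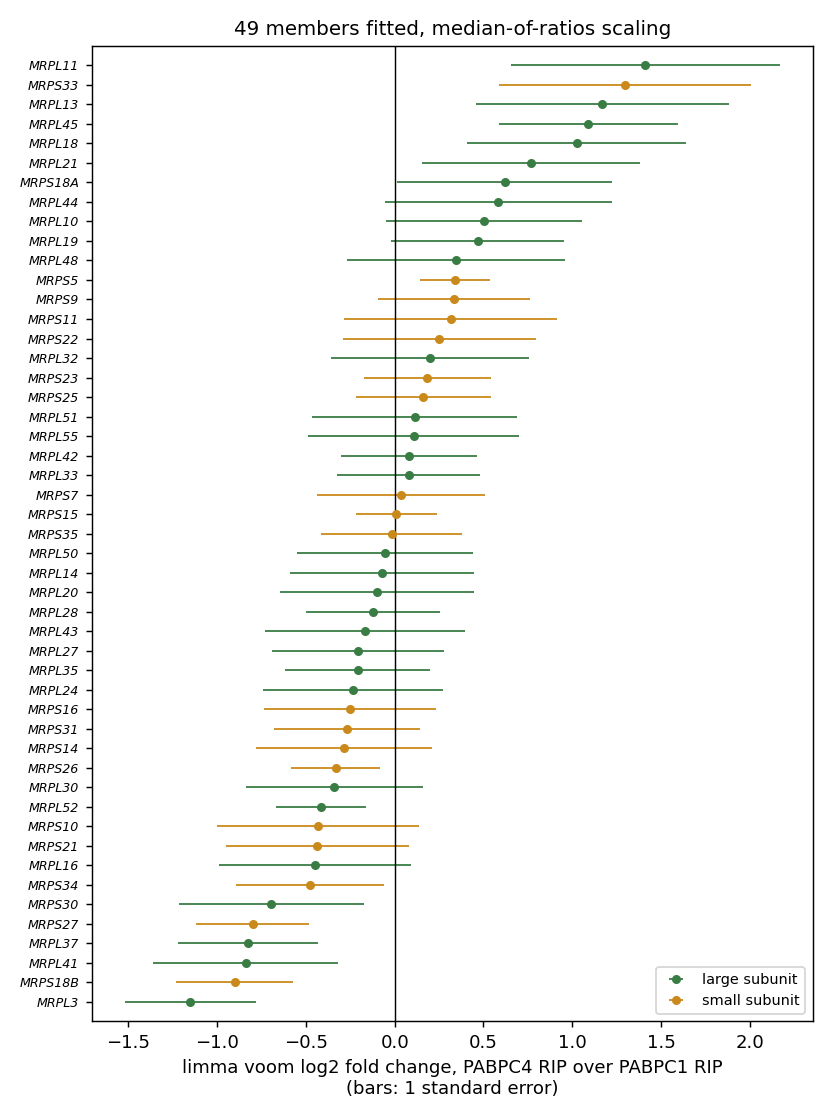
Limma voom log2 fold change of PABPC4 RIP over PABPC1 RIP for the 49 members fitted (points, bars of 1 standard error), ordered by value and coloured by subunit, with 0 marked by a line. Members run from -1.15 for MRPL3 to 1.41 for MRPL11, 24 of them are above 0, and none passed an adjusted p of 0.05.

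By role, the 26 small subunit mRNAs had 1834 reads in PABPC4 RIP, 458 in PABPC1 RIP and 89 in IgG RIP, and the 51 large subunit mRNAs had 1541, 381 and 98. For PABPC4 the authors' deposited table calls 4 of 26 small subunit and 1 of 51 large subunit members higher. Over all genes it calls 5.54% higher. The 4 include MRPS5, MRPS15 and MRPS26, the 3 members with the most reads, and such a call depends on depth. The ratio over IgG per library total was 2.77 for the small and 2.11 for the large subunit with PABPC4, and 2.06 and 1.56 with PABPC1. Per nuclear total the small subunit had 1.41 (1.14 to 1.76) with PABPC4 and 1.46 (1.16 to 1.86) with PABPC1. The large subunit had 1.07 (0.875 to 1.33) and 1.11 (0.884 to 1.4). The small subunit sums include the 3 deepest members, with 915 reads in PABPC4 RIP, 202 in PABPC1 RIP and 37 in IgG RIP. A small subunit ratio without them was not computed. The small subunit's ratio divided by the large subunit's was 1.31 for PABPC4 over IgG (0.965 to 1.78) and 1.32 for PABPC1 over IgG (0.951 to 1.84), intervals that include 1. For PABPC4 over PABPC1 the subunits were close, with ratios of 1.34 for small and 1.36 for large and a quotient of 0.99 (0.848 to 1.16), or 1.01 for large over small. The 30 mitochondrion-specific members had a PABPC4 over PABPC1 ratio of 1.24 and the 47 with a bacterial homologue one of 1.42, a quotient of 0.872 (0.746 to 1.02). The 25 members with the longest gene models had 1.45 and the 26 with the shortest 1.29, a quotient of 1.12 (0.928 to 1.36). No division of the family by subunit, descent or length therefore differed beyond counting error between the 2 proteins. MRPS36, whose product is now known as a subunit of the 2-oxoglutarate dehydrogenase complex, was kept apart and had 6, 2 and 1 reads in PABPC4, PABPC1 and IgG RIP.

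The 3 human homologues of bacterial S18 differed in level and were each uncalled. MRPS18B had 31 and 30 reads in PABPC4 RIP and 14 and 13 in PABPC1 RIP, against 3 and 2 in IgG RIP. MRPS18A had 13 and 20 reads in PABPC4 RIP and 1 and 4 in PABPC1 RIP, against 0 in IgG RIP. MRPS18C had 16 and 5 reads in PABPC4 RIP and 1 and 1 in PABPC1 RIP, against 1 and 0 in IgG RIP. Per length and in both RIPs, the mean was highest for MRPS18B and lowest for MRPS18C, and MRPS18A and MRPS18B did not overlap in either RIP. For PABPC4 over PABPC1 per library total, MRPS18B had a ratio of 0.757 (0.474 to 1.24), MRPS18A one of 2.21 (0.858 to 7.26) and MRPS18C one of 3.52 (0.860 to 31.0), all with intervals that include 1. Per nuclear total the interval of MRPS18B lay below 1, with a ratio of 0.542 (0.339 to 0.888), and those of MRPS18A at 1.58 (0.615 to 5.2) and MRPS18C at 2.52 (0.616 to 22.2) include 1.

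Among mitochondrial ribosomal proteins with other symbols, GADD45GIP1, a large subunit protein, was called higher in PABPC4 RIP, with 120 reads against 1 in IgG, and an adjusted p of 0.00706 in the authors' deposited table. DAP3, PTCD3, CHCHD1 and AURKAIP1 were not called in either table. These 5 together had ratios of 2.56 for PABPC4 and 1.80 for PABPC1 over IgG, near the 2.42 and 1.79 of the 78 members. For PABPC4 the authors' deposited table called 0 of 18 mitochondrial translation factors, 0 of 25 mitoribosome assembly factors and 0 of 20 mitochondrial aminoacyl-tRNA synthetases in either direction. For PABPC1 it called 0 of 17, 0 of 23 and 0 of 19. Over all genes it called 5.54% higher and 0.9% lower for PABPC4, and 1.34% and 0.194% for PABPC1. Lists this short would hold few calls at those shares. Their summed reads had ratios over IgG between 2.07 and 2.46 with PABPC4 and between 1.66 and 1.98 with PABPC1.

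Against other families, the members stood higher over IgG than the cytosolic ribosomal protein mRNAs. Per 100 reads of the 86 cytosolic ribosomal protein genes, the members had 10.6 and 9.87 reads in PABPC4 RIP, 9.28 and 10.4 in PABPC1 RIP and 6.63 and 8.22 in IgG RIP, and neither RIP overlapped with IgG. The members' ratio divided by that of the cytosolic ribosomal protein mRNAs was 1.40 for PABPC4 over IgG (1.2 to 1.64) and 1.35 for PABPC1 over IgG (1.14 to 1.60), values that do not depend on the choice of totals. For PABPC4 over PABPC1 it was 1.04 (0.959 to 1.13). Against the 85 nuclear genes of oxidative phosphorylation, whose mitochondrial partners this ribosome makes, the quotient was 1.15 for PABPC4 over IgG (0.940 to 1.41) and 1.2 for PABPC1 over IgG (0.966 to 1.5). The mitochondrial ribosome translates the mitochondrially encoded mRNAs. Per 100 of their reads, the members had 6.4 and 5.41 in PABPC4 RIP, 3.11 and 3.79 in PABPC1 RIP and 2.13 and 2.74 in IgG RIP. The 3 groups did not overlap. Per nuclear total the PABPC4 over PABPC1 ratio was 0.565 for the mitochondrially encoded mRNAs and 0.965 for the members. It was 1.01 for all protein-coding nuclear mRNAs, which make up most of the nuclear total, so that value is near 1 by construction. Per library total the ratios were 0.789 for the mitochondrially encoded mRNAs, 1.35 for the members and 1.41 for all protein-coding nuclear mRNAs. The members' gap to the mitochondrially encoded mRNAs is thus not particular to the members.

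**Figure D5:**
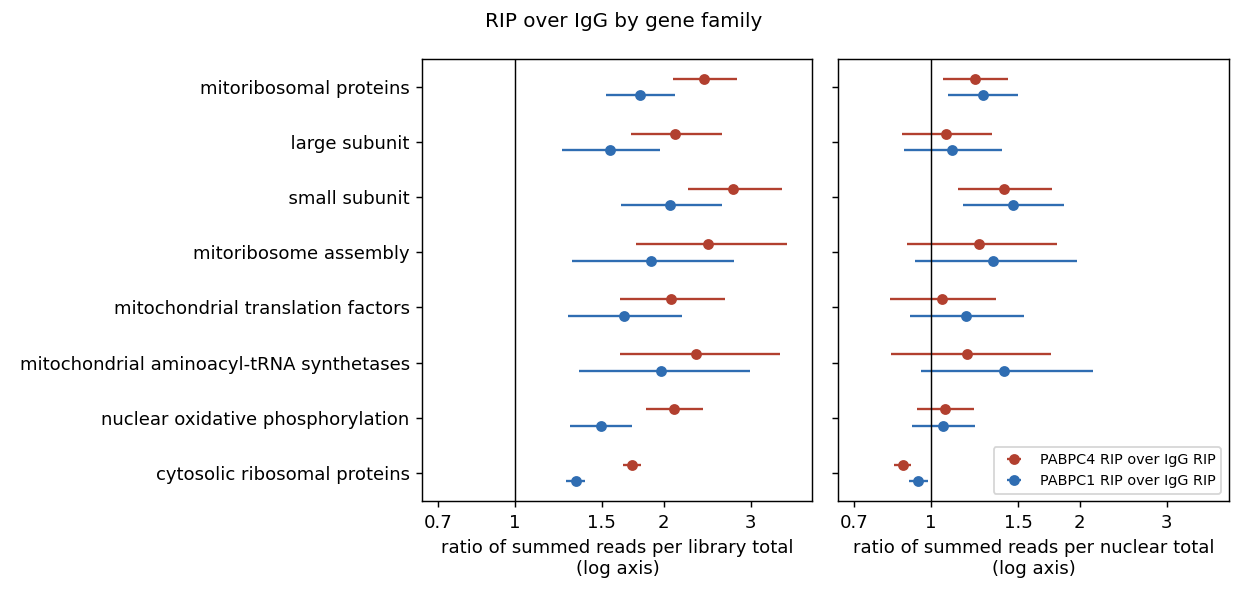
Ratio of summed reads over IgG (log x axis) by family, PABPC4 above PABPC1, per library total (left) and per nuclear total (right); bars are exact 95% intervals for counting error and the line marks 1. All families shown lie above 1 on the left. On the right the mitoribosomal proteins have intervals above 1, as does their small subunit, which holds the deepest members MRPS5, MRPS15 and MRPS26. The cytosolic ribosomal proteins lie below 1 there.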

How the data were processed

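RIP-seq was measured in 6 HepG2 libraries, grouped by antibody from the labels. The authors deposited 2 tables of 58302 genes with a linear ratio (fold), a p-value and a Benjamini-Hochberg adjusted p-value for each RIP against IgG, per the file headers, with 0 columns of single libraries. Per the submitters' processing notes, the tools included featureCounts 2.0.1, STAR 2.7.10a and Bowtie2 2.4.1, in no stated order, on builds called hg38 and GRCh38. The sources used here do not say whether strand was used, so reads of overlapping genes on opposite strands cannot be told apart.

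The deposited p-value is that of a Yates-corrected chi-square test, applied to reads summed over libraries, and the deposited ratio equals mean RPKM of the RIP over mean RPKM of IgG plus 0.005. From these, summed reads were recovered for 22603 of 22607 genes with a p, and reads per library for 22118. In 14784 of 14784 genes solved in each table, both gave the same IgG reads, so both used the same pooled IgG libraries. Reads of MALAT1, RN7SL2 and the 2 mitochondrial rRNAs were not recovered and are outside the nuclear totals. Recovery and fit were checked on simulated data.

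Ratios of summed reads carry exact 95% intervals (Clopper-Pearson on the split of reads, or the exact conditional odds ratio for quotients), made with scipy 1.17.1. Intervals and the floor of 3 reads cover counting error only. Limma 3.58.1 (voom, 3 groups, empirical Bayes, 3 residual degrees of freedom) in R 4.3.3 gave adjusted p values over all genes fitted. Named members were those called, the 10 with most reads, the 5 highest and lowest ratios over IgG among members with at least 20 reads in both groups together, the 5 highest and lowest voom changes for PABPC4 over PABPC1, those with 0 IgG reads (by name or count), and up to 4 per role group. The RIP libraries are the only replicates, 2 per group, and the 2 IgG libraries come from different cell populations. Limma voom took these as 1 group. Their spread, and the values with either left out, therefore mix population with library, which cannot be told apart. Members, lists and tests were chosen with earlier results of these data known. Alternatives were other totals, read minimums, Fisher's exact test, a 2-group fit and each library left out.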

Additional observations from a re-analysis of the deposited data

How the results depend on the processing

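No paired analysis was possible because the recovered libraries cannot be tied to replicate numbers. Counting error at IgG depths of 133030 and 94235 reads limits every comparison with IgG.

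Totals decided most results. The family ratio for PABPC4 over IgG was 2.42 per library total, 1.23 with totals of nuclear-encoded genes, 1.25 with median-of-ratios scaling and 1.12 with nuclear totals without the 3 deepest members. For PABPC1 over IgG the values were 1.79, 1.27, 1.29 and 1.2. For PABPC4 over PABPC1 they were 1.35, 0.965, 0.971 and 0.926, a change of direction. The median of members' ratios for PABPC1 over IgG was 2.86 per library total, against 1.48 for protein-coding nuclear mRNAs. It covers only the 11 members with at least 20 reads in both groups together. Most of them passed that minimum through PABPC1 reads, so this median supports no direction for the family. Leaving out 1 library, on either total, gave 1.09 to 2.71 for PABPC4 over IgG, 1.13 to 2.01 for PABPC1 over IgG and 0.926 to 1.48 for PABPC4 over PABPC1. Nuclear totals combined with a left-out library or left-out members were chosen after seeing the data. The ratio of large to small subunit was 1.01 from summed reads, 1.00 to 1.02 with 1 library left out, and 0.960 from medians of members' ratios. With nuclear or median-of-ratios totals, higher chi-square calls over all genes fell to 110 or 117 for PABPC4 and 25 or 27 for PABPC1. Chi-square calls of members fell to 0 for both proteins with these totals. With 1 library left out they were 0 to 5 for PABPC4 and 0 for PABPC1, and with Fisher's exact test or a minimum of 20 reads they were 5 and 1 as before.

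In limma voom, library totals put the median log2 fold change of all genes at 0.45 (PABPC4 over PABPC1), 0.43 (PABPC1 over IgG) and 0.90 (PABPC4 over IgG), moves of 0.47, 0.47 and 0.94. They called 2, 1 and 12 of 49 members, all higher (4.08%, 2.04% and 24.5%), and 14.6%, 4.87% and 29.3% of all genes, where the reported fits called 0, 0 and 1 members, the 1 being lower. For PABPC4 over IgG the count was 11 without a filter on low counts (2 higher, 9 lower), 14.1% of 78 members against 42.1% of all genes. It was 0 of 21 members with at least 20 reads in 2 libraries, where 5.7% of all genes were called. With only the 2 groups compared it was 0 of 49 members, where 1.26% of all genes were called. Fits with 1 library left out are described above for both comparisons with PABPC4, and took in 13 members without a PABPC4 library. For PABPC4 over PABPC1 the count was 2 of 49 members with only the 2 groups, where 6.99% of all genes were called. For PABPC1 over IgG it stayed 0 with 1 library left out. The causes were not tested.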
